A study of Mus musculus with 158 samples.

Results

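The integrin and laminin genes of mouse brain cells were taken as every row of the mouse gene count table whose symbol starts with Itga or Itgb followed by a digit, together with Itgav, Itgam, Itgax, Itgal and the genes of the laminin alpha, beta and gamma chains. The rule found 39 of 21956 gene rows. They comprised 16 integrin alpha subunits, 9 rows named for integrin beta subunits, 11 laminin chains (5 alpha, 3 beta and 3 gamma) and 3 genes that share the symbol stem but encode proteins binding to integrins, Itgb1bp1, Itgb1bp2 and Itgb3bp. Another 2 integrin subunit rows, Itgad and Itgae, lie outside the rule.

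The values were raw gene counts from single mouse brain cells drawn up with a patch pipette, all untreated, whose polyA RNA went through 3 rounds of antisense RNA amplification before sequencing. The 158 libraries came from 149 cells in 6 groups. Cultured cortical astrocytes numbered 86 cells. Of these, 3 C57/BL6 cells had 7 days in primary culture, and the C57/BL6/N cells were 70 of 12 days, 5 of 14 days and 8 of 15 days. Cultured cortical neurons were 13 C57/BL6/N cells, 3 each at 6, 10 and 15 days and 4 at 13 days. Cultured hippocampal neurons were 8 C57/BL6 cells at 15 days, counted as 1 per library. The titles of these 8 libraries end in the letter S (6) or D (2), and each D title shares its stem with an S title. The labels do not explain the letters, so whether such libraries come from 1 cell is unknown. Acute slices of C57/BL6/N mice gave 22 cortical neurons, 15 hippocampal CA1 neurons and 5 CA3 neurons. The labels name no animal or culture, and the sources used here do not give animal ages. Each group was therefore 1 sample: the values carry no p-value, intervals cover counting error only, and the spread given is that between cells. The astrocytes and the hippocampal cultures were basecalled with bcl2fastq2 (the later version) alone, and the other groups also hold cells of bcl2fastq 1.8.4.

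Integrins cross the cell membrane as a pair of an alpha and a beta subunit and link the matrix outside the cell to actin inside it. The beta1 subunit, encoded by Itgb1, pairs with many alpha subunits, and the alpha subunit largely sets the ligand. Laminins are cross-shaped trimers of an alpha, a beta and a gamma chain, and they form the sheet on which basement membranes assemble. In the brain, such a membrane lies between blood vessels and the endfeet of astrocytes, and astrocytes contribute laminin to it.

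Promoter sequences of 3 members on which the results turn are shown here for orientation, from RefSeq (GRCm38.p6). Of the 39 members, 26 had an entry. Itgb1 was the member present in every astrocyte. Lama5 was frequent in astrocytes, whereas Lamb1 was the only laminin chain detected in at least 50% of the cultured hippocampal neurons. Each window runs 5′ to 3′ on the gene's own strand and stops before the first annotated exon. It lies at chr8:128685404-128685653 on the + strand for Itgb1, chr2:180225860-180226109 on the - strand for Lama5 and chr12:31265043-31265233 on the + strand for Lamb1. Capitals mark a GC box (GGGCGG or its reverse complement CCGCCC) or a CCAAT box (CCAAT or ATTGG).
Itgb1: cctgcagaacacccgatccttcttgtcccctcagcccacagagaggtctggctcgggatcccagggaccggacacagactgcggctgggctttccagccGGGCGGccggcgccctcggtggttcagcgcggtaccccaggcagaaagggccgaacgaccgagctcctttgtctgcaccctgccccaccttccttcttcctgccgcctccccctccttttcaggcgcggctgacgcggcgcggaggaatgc
Lama5: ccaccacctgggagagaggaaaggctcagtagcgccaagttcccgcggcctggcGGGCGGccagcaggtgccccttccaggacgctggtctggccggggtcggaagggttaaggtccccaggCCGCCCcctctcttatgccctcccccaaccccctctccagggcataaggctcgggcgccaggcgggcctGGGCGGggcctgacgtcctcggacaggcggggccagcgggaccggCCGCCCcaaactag
Lamb1: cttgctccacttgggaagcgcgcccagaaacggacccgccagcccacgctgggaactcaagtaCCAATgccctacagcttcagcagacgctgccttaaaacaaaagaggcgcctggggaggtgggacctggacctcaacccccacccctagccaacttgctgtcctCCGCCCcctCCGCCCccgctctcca
The Itgb1 window of 250 bases held 1 GC box, that of Lama5, also 250 bases, held 4, and that of Lamb1, 191 bases, held 2 GC boxes and 1 CCAAT box. Their GC contents were 68%, 72.4% and 63.9%. None held TATAAA or TTTATA. Of 32851 RefSeq promoters, 32.7% held a GC box, 33.8% a CCAAT box and 12.4% the TATA letters in a window of 250 bases, with a median GC content of 52.4%. In a window of 191 bases the shares were 23.1%, 26.9% and 8.78%. These matches describe letters and say nothing of what binds there.

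Library totals ran from 535369 to 38680739 counts, with a median of 10736000. The median total per cell was 15369200 in astrocytes, 13027000 and 10649000 in cultured cortical and hippocampal neurons, and 4125370 to 5744560 in the slice groups. A gene was called detected in a cell at 5 or more counts after each cell was thinned to 1000000 counts, which left out 1 CA1 cell. Genes detected per cell had a median of 4921 in astrocytes, 4447 in cultured cortical and 7507 in cultured hippocampal neurons, but 1808 to 2150 in the slice groups. CPM, counts per 1000000, were computed from the counts summed over a group. Of the cultured cortical neurons, 4 had more astrocyte than neuron markers detected, as had 4 of the cortical slice neurons and none of the other neurons. At least 3 of 18 microglia markers were detected in 12 of 22 cortical and 8 of 14 CA1 slice neurons. The same held for 2 of 5 CA3 neurons, 3 of 13 cultured cortical neurons and 10 of 86 astrocytes, and for no hippocampal culture cell. Those cells stay in the values below, and results that turn on them are given without them too.

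Astrocytes held the most integrin and laminin genes. Their cells had a median of 10 of the 39 members detected (lowest 2, highest 16), against 3 (0 to 13) for cultured cortical and 5 (3 to 9) for cultured hippocampal neurons. In slices the medians were 2 (0 to 8) for cortical, 1.5 (0 to 4) for CA1 and 1 (1 to 2) for CA3 neurons. No member at all was detected in 4 of 13 cultured cortical neurons, 4 of 22 cortical slice neurons and 4 of 14 CA1 neurons. In astrocytes, 9 members were detected in at least 50% of cells, where 21.5% of all gene rows were. The counts were 1 member for cultured cortical neurons (12.6% of all rows) and 3 for cultured hippocampal neurons (35.6%). Slices gave 0 for cortical (3.66%), 0 for CA1 (3.88%) and 1 for CA3 cells (5.52%). The 9 of 39 in astrocytes stood close to the share of all rows.

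Every member had a count in some cell. At 10 CPM or more in at least 1 group stood 19 members, and 15 of these were also detected in 25% or more of that group's cells. The other 20 stayed below 10 CPM in each group, the highest being Lamb3, a chain of epithelial laminin, at 9.36 CPM in CA3 neurons. Many slice values came from single cells: of the 7 members at 10 CPM or more in cortical slice neurons, 5 took over 50% of their counts from 1 cell, as did 6 of 7 in CA1 and 3 of 3 in CA3. In astrocytes this held for 1 of 16, Itgam.

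**Figure D1:**
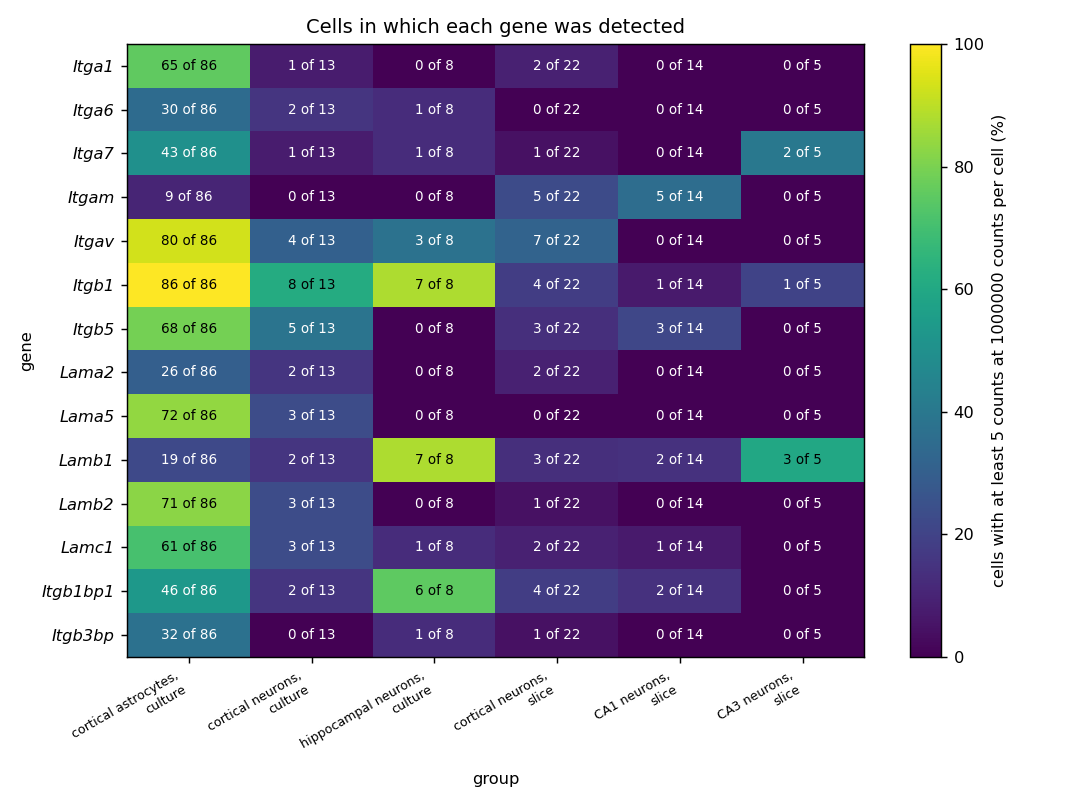
Share of cells in which each of 14 integrin and laminin genes was detected (colour, percent of cells with at least 5 counts at 1000000 counts per cell), with the number of cells printed, by gene (rows) and group (columns). Itgb1, Itgav, Lama5 and Lamb2 were detected in 86, 80, 72 and 71 of 86 astrocytes, and Lamb1 in 7 of 8 cultured hippocampal neurons.

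Among the alpha subunits, Itgav led in astrocytes. Its product pairs with several beta subunits, among them that of Itgb5, and binds vitronectin and other matrix proteins with an RGD sequence. Itgav (chr2:83724397-83806916, + strand, GRCm38) stood at 491 CPM in astrocytes (95% Poisson interval 489 to 492) and was detected in 80 of 86 cells. Single astrocytes ran from 0.979 through a median of 394 to 1916 CPM. In cultured cortical neurons it stood at 34.6 CPM, with cells from 0 through 0.135 to 237 CPM, and in cultured hippocampal neurons at 11.5 CPM, with cells from 0 through 2.98 to 74 CPM. Cortical slice neurons gave 80.8 CPM, with cells from 0 through 0.364 to 1335 CPM, and a single cell held 75.7% of these counts. CA1 and CA3 neurons stood at 0.0642 and 0.109 CPM, with detection in no cell. The ranges of astrocytes and neurons overlapped, but the median astrocyte lay above every cultured neuron.

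Itga1 makes, with the beta1 subunit, a receptor for collagens and laminins. Itga1 (chr13:114953096-115101964, - strand) stood at 135 CPM in astrocytes (134 to 136), with detection in 65 of 86 cells and cells from 0 through 72.5 to 2139.7 CPM. It shares its locus with Pelo on the same strand, and how the counting treated that overlap is unknown. In cultured cortical neurons it was present in 1 cell, at 313 CPM. That cell also had more astrocyte than neuron markers. Itga1 was not detected in any hippocampal, CA1 or CA3 cell and stood at 1.36 CPM in cortical slice neurons.

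The subunits of the laminin receptors were lower and more scattered. Itga7 and Itga6 encode alpha subunits that bind laminin together with beta1. Itga7 (chr10:128933818-128958282, + strand) stood at 20.1 CPM in astrocytes with detection in 43 of 86 cells, and cells ran from 0 through 4.69 to 269 CPM. Itga6 (chr2:71745616-71858416, + strand) stood at 18.8 CPM with detection in 30 of 86 cells, from 0 through 0.435 to 228 CPM. Both were detected together in 21 astrocytes, and at least 1 of Itga3, Itga6 and Itga7 in 58 of 86. In the 5 CA3 neurons, Itga7 read 0, 0, 36.6, 0.398 and 103 CPM, so 2 cells carried it and 3 had little or none. Leaving out each CA3 cell in turn moved its CA3 level between 4.35 and 18.0 CPM. In the other neuron groups Itga7 was detected in at most 1 cell.

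Itgam encodes the alpha subunit of complement receptor 3, which microglia and other myeloid cells carry with the beta2 subunit of Itgb2. It was the highest of the members in CA1 neurons on the scale of CPM per kilobase of exon (19.8), and also in cortical slice neurons (15.5). Itgam (chr7:128062640-128118491, + strand) stood at 99.7 CPM in CA1 neurons (97.5 to 102), with detection in 5 of 14 cells and 1 cell at 1489.5 CPM holding 74.9% of the counts. In cortical slice neurons it stood at 77.8 CPM with detection in 5 of 22 cells, and 1 cell at 1326 CPM held 61.8%. It stood at 10.6 CPM in astrocytes, with detection in 9 of 86 cells and 401 CPM at most, at 0 counts in cultured cortical neurons and at 0.0341 CPM in cultured hippocampal neurons. No cultured neuron and no CA3 cell had it detected.

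Microglia markers moved with Itgam. In CA1, the 5 cells with Itgam had 5475 to 22741 CPM of the 18 summed microglia markers (median 15613), and the 9 without had 0.379 to 6041 CPM (median 17.9). The ranges overlapped. All 5 belonged to the 8 cells with 3 or more such markers, and in the rest Itgam was at 0 counts. In cortical slices, 4 of the 5 cells with Itgam were such cells. Among the 12 marker-bearing cortical slice cells Itgam stood at 135 CPM, and among the other 10 at 1.60 CPM with detection in 1. Itgb2, the partner, was detected in 2 of the 5 cortical slice cells with Itgam, in 0 of the 5 CA1 cells and in 4 of the 9 astrocytes. Of the 9 astrocytes with Itgam, 8 had 3 or more microglia markers. Summed over a group, the markers stood at 9093 CPM in CA1, 3533 in cortical slice neurons, 387 in CA3, 329 in astrocytes, 538 in cultured cortical and 3.40 in cultured hippocampal neurons. None of the 18 markers was at 0 counts in cortical or CA1 slice neurons, and P2ry13, C1qa, Trem2 and Ly86 were at 0 in CA3. Their part in the Itgam values was not tested.

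**Figure D2:**
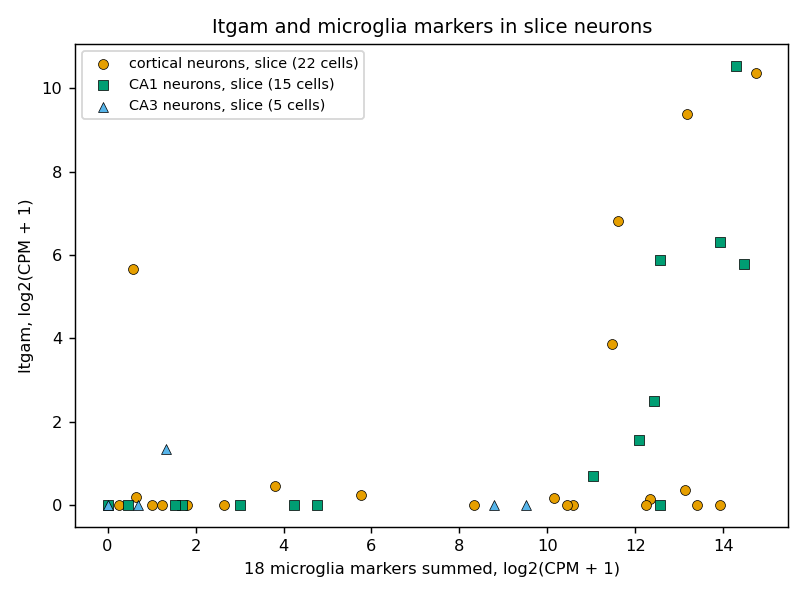
Itgam in each slice neuron (vertical axis, log2 of CPM + 1) against the summed CPM of 18 microglia markers in the same cell (horizontal axis, log2 of CPM + 1), coloured by slice group. The 5 CA1 cells with Itgam detected lay at 5475 CPM of markers or more, and 1 cortical cell at 49.5 CPM of Itgam had 0.495 CPM of markers.

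Itga4, Itga8 and Itga10 reached 10 CPM in a slice group through few cells. Itga4 encodes the alpha4 subunit, which binds VCAM1 and fibronectin. It stood at 24.6 CPM in cortical slice neurons, with detection in 3 of 22 cells. Itga8, for the nephronectin-binding alpha8 subunit, stood at 25.6 CPM there, with 99.8% of counts in 1 cell, and at 11.3 CPM in CA1. Itga10, for a collagen-binding subunit, stood at 32 CPM in CA1 with nearly all counts in 1 cell.

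Itgb1 was the main beta subunit in all cultured groups, and the only member detected in every astrocyte. Itgb1 (chr8:128685654-128733200, + strand, with no overlapping gene in the annotation) stood at 1647 CPM in astrocytes (1645 to 1649.5), with cells from 10.8 through 1393 to 9099 CPM. Per kilobase of exon it stood at 404 CPM in astrocytes, above Itgav at 45.7, Lamb2 at 31.9, Itgb5 at 25.6 and Lama5 at 10.0. In cultured cortical neurons it stood at 118 CPM (116 to 119), with detection in 8 of 13 cells and cells from 0 through 17.9 to 662 CPM. In the 8 cultured hippocampal neurons it stood at 75.3 CPM (73.5 to 77.1), with detection in 7 and cells from 0.161 through 54.4 to 149.9 CPM. The 6 with the title letter S alone stood at 84.2 CPM, with detection in 6. Slice groups were sparse: 4 of 22 cortical cells (38.2 CPM, 82.4% of counts in 1 cell), 1 of 14 CA1 cells (41.2 CPM, 99.9% in 1 cell) and 1 of 5 CA3 cells (129 CPM in that cell and 0 in the other 4). The 3 slice levels cannot be ordered, since each rests largely on 1 cell. The ranges of astrocytes and cultured neurons overlapped, and the median astrocyte exceeded the highest neuron of each neuron group.

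Itgb5 encodes a partner of the alphav subunit. Itgb5 (chr16:33829665-33949338, + strand) stood at 91.0 CPM in astrocytes (90.5 to 91.5), with detection in 68 of 86 cells and cells from 0 through 37.8 to 1165 CPM. Cultured cortical neurons followed at 53.2 CPM, with 5 of 13 cells detected and cells from 0 through 0.155 to 242 CPM. CA1 neurons stood at 10.7 CPM, with 3 of 14 cells detected, cortical slice neurons at 2.89 CPM with 3 of 22, and neither the hippocampal cultures nor CA3 had a cell detected. All 3 cortical slice cells with Itgb5 were among the cells with 3 or more microglia markers.

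**Figure D3:**
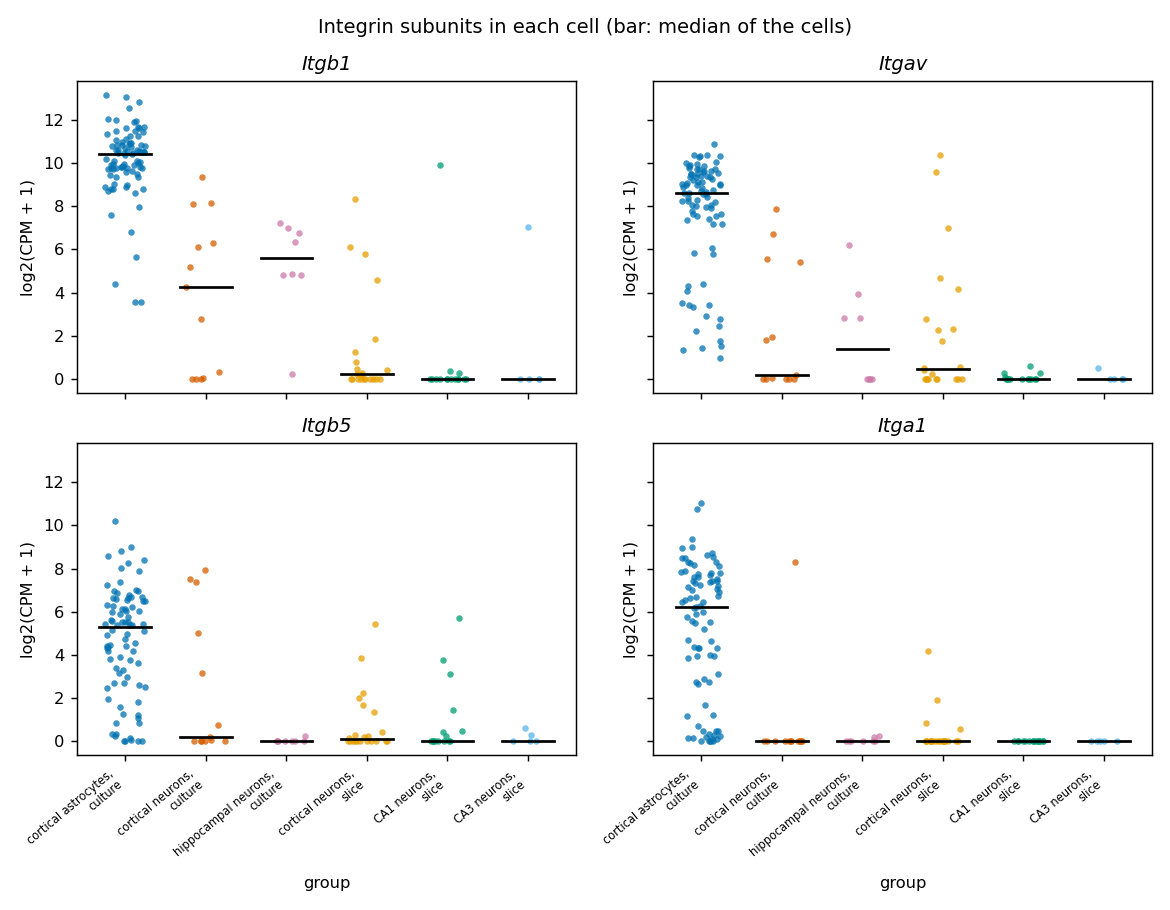
Itgb1, Itgav, Itgb5 and Itga1 in each cell (vertical axis, log2 of CPM + 1) by group (horizontal axis), with 1 point per cell and a bar at the median of the cells. Astrocytes have the highest medians for all 4 genes, at 1393, 394, 37.8 and 72.5 CPM.

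Subunits that can pair were often found in the same astrocyte. Itgb1 was detected with 1 of its alpha partners in 84 of 86 astrocytes, and Itgav with Itgb5 in 67 of 86. All of Itga1, Itgav, Itgb1 and Itgb5 were detected in 51 astrocytes, or 59.3% (exact Clopper-Pearson 95% interval 48.2 to 69.8%), against 1 of 13 cultured cortical neurons and no cell of the other groups. Co-detection depended on how many genes a cell showed at all. The 21 astrocytes with fewest genes (1298 to 3678) had a median of 6 members, the middle 43 had 9, and the 22 with most genes (6766 to 8913) had 13. Itga1 was detected in 10 of 21, 33 of 43 and 22 of 22 of these classes, and Itgb1 in all cells of each.

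Of the laminin chains, astrocytes carried mainly Lama5, Lamb2 and Lamc1, which encode the alpha5, beta2 and gamma1 chains and can form a single trimer. Lamb2 (chr9:108479736-108490530, + strand) stood at 194 CPM (193 to 195), with detection in 71 of 86 cells and cells from 0 through 112 to 1084 CPM. Lama5 (chr2:180176373-180225859, - strand) stood at 114 CPM (114 to 115), with detection in 72 cells and cells from 0 through 48.1 to 3431 CPM. Lamc1 (chr1:153218922-153332786, - strand) stood at 42.1 CPM (41.7 to 42.4), with detection in 61 cells and cells from 0 through 16.4 to 596 CPM. Per kilobase of exon, Lamb2 stood at 31.9 CPM, Lama5 at 10.0 and Lamc1 at 5.09. How the 3 rounds of amplification from the polyA end bear on long transcripts was not tested.

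Most neurons lacked these 3 chains. Among cultured cortical neurons, each was detected in 3 of 13 cells, with 62.2 CPM for Lamb2, 49.7 for Lama5 and 4.14 for Lamc1. A single cell held 91.2% of the Lamb2 counts, at 1112 CPM. In cultured hippocampal neurons Lama5 and Lamb2 stood at 0.50 and 0.0114 CPM with detection in no cell. Lamc1 just reached detection there in a single cell, at 5.00 CPM. No slice cell had Lama5 detected, and 1 of 22 cortical slice cells had Lamb2. Among cortical slice cells, Lamc1 was detected in 2 of the 10 without 3 or more microglia markers and 0 of the 12 with them. In CA1 it was detected in 0 of 6 and 1 of 8 such cells, and in CA3 in no cell.

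Lama5, Lamb2 and Lamc1 were detected together in 54 of 86 astrocytes, or 62.8% (51.7 to 73%). The set of Lama2, Lamb2 and Lamc1 was complete in 24 astrocytes, and that of Lama5, Lamb1 and Lamc1 in 14. An alpha, a beta and a gamma chain were all detected in 57 of 86 astrocytes, in 1 of 13 cultured cortical neurons and in none of the other neurons.

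The remaining astrocyte chains were patchier. Lama2, for the alpha2 chain that is deficient in a congenital muscular dystrophy, stood at 21.1 CPM with detection in 26 cells and cells from 0 through 0.532 to 302 CPM. Lamb1, the beta1 chain, stood at 70.5 CPM but was detected in 19 of 86 cells, with a median of 0 and a maximum of 1992 CPM. One astrocyte held 42.4% of its counts. Of the 19 astrocytes with Lamb1, 17 also had Lamb2.

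Some markers of other matrix-making cells were detected in these astrocytes. At least 3 of 10 fibroblast and meningeal markers were detected in 54 of 86 cells, with 0.835 to 10877 CPM summed per cell, against 0 to 982 CPM in cultured cortical neurons. The 8 mural markers reached 3 in 21 astrocytes (14.2 to 13256 CPM, against 0 to 3033), and the 12 endothelial markers reached 3 in 10 (0 to 1163 CPM, against 0 to 569.9 CPM). Of the lists, 5 of 8 mural, 8 of 10 fibroblast and 6 of 12 endothelial markers were detected in any astrocyte. Acta2 alone gave 1294 of the 1370 CPM of the mural markers. Slco1a4 and Slc2a1 gave 160 and 84.6 of the 248 CPM of the endothelial ones. Rgs5, Kcnj8, Anpep, Slc6a13 and Igf2 had counts but were detected in no astrocyte, as were Pecam1, Cdh5, Ly6c1, Esam and Emcn. Cldn5, which marks endothelium, was at 0 counts. The part of these markers in the laminin levels was not tested.

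Lamb1 had another distribution over the groups than the other chains. Lamb1 (chr12:31265234-31329644, + strand, with no overlapping gene) read 44.6, 0.322, 33.5, 98.0, 88.3, 234, 85.9 and 116 CPM in the 8 cultured hippocampal neurons. They summed to 94.9 CPM (92.8 to 96.9), and 7 of 8 cells had it detected (interval 47.3 to 99.7% of cells). Among the 6 libraries with the title letter S alone, Lamb1 was detected in 6, at 106 CPM, and its ratio to cultured cortical neurons was 3.29 instead of 3.13. In 4 of the 7 it was the sole laminin chain detected. The 5 CA3 neurons read 0, 3249, 0, 5.43 and 20.9 CPM. The group's 1196 CPM thus came almost wholly from 1 cell, and leaving out each cell in turn gave 4.72 to 1647 CPM. CA1 neurons stood at 35.9 CPM with detection in 2 of 14 cells, cultured cortical neurons at 9.94 CPM with 2 of 13, and cortical slice neurons at 5.27 CPM with 3 of 22. The CA1 level also counts the cell left out by thinning, which read 2398 CPM, the highest in CA1. On medians of single cells, the cultured hippocampal neurons (87.1 CPM) were first, CA3 neurons (5.43) next and the other 4 groups at 0, but the ranges of all 6 groups overlapped. In the 7 hippocampal cells with Lamb1, fibroblast and meningeal markers summed to at most 2.56 CPM. Detection in the CA3 cell at 5.43 CPM, near the cut of 5 counts, depends on the random draw of the thinning. In the 3 CA3 cells with Lamb1 detected, mural, fibroblast and endothelial markers each summed to at most 1.02 CPM. Microglia markers in the same 3 cells summed to 726 CPM (in the cell with most Lamb1), 439 and 1.53 CPM, against 0 and 0.610 CPM in the 2 cells without it. Their part in the CA3 value was not tested.

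**Figure D4:**
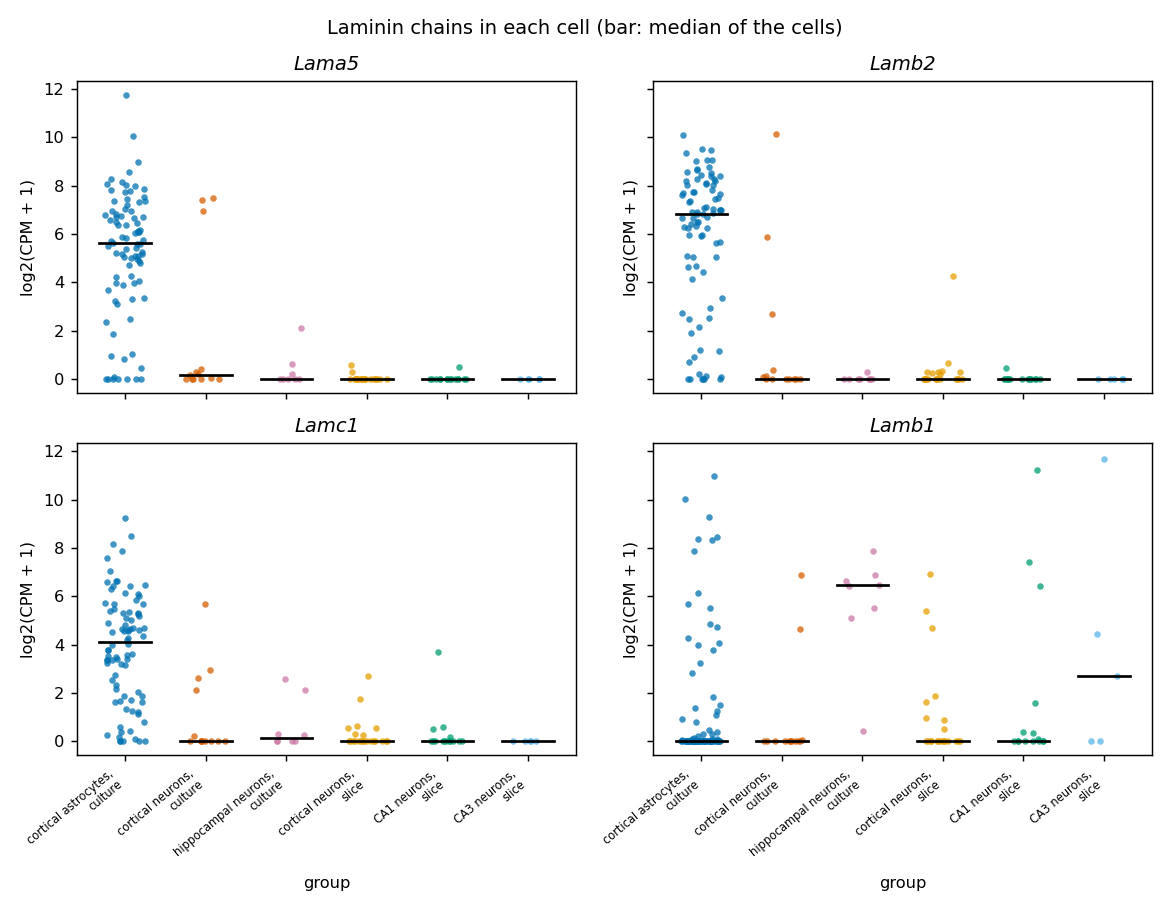
Lama5, Lamb2, Lamc1 and Lamb1 in each cell (vertical axis, log2 of CPM + 1) by group (horizontal axis), with 1 point per cell and a bar at the median of the cells. Lama5, Lamb2 and Lamc1 are high in most astrocytes, with medians of 48.1, 112 and 16.4 CPM, whereas the Lamb1 median is 0 in astrocytes and 87.1 CPM in cultured hippocampal neurons.

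The integrin-binding proteins that met the rule differed from each other. Itgb1bp1 encodes a protein that binds the tail of beta1 and restrains its activation. It stood at 29.7 CPM in astrocytes (46 of 86 cells), 35.2 in cultured cortical neurons (2 of 13), 39 in cultured hippocampal neurons (6 of 8), 10.1 in cortical slice neurons (4 of 22) and 4.21 in CA1 neurons (2 of 14). Hippocampal cells ran from 0.0744 through 15.0 to 173 CPM, within the astrocyte range of 0 to 403 CPM. Itgb1bp1 overlaps Asap2 and Cpsf3 on the other strand, and the strand setting of the counting is unknown, so reads of these genes may not have been told apart. Itgb3bp, whose product is also known as a centromere protein, stood at 20.7 CPM in astrocytes (32 of 86 cells) and was detected in at most 1 cell of each other group. It overlaps Efcab7 and Pgm1 on the other strand.

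Astrocytes were compared with cultured cortical neurons to ask how cell type in culture goes with these genes. Ratios here and below are log2 of summed CPM + 1, and a gene was taken as measured where the compared groups held 10 or more counts of it, from 3 or more cells. Of the 39 members 35 passed this filter, and 19 of the 35 were at least 2-fold higher in astrocytes, where 29.8% of 17473 measured genes were, and 1 was at least 2-fold lower, where 19.9% were. The members' median log2 ratio was 1.51, beside 0.08 for all measured genes. Of the alpha subunits 10 of 15 were 2-fold higher, of the beta subunits 1 of 6, and of the laminin chains 7 of 11, with none lower in any of the 3. The member that was lower, Itgb1bp2, is named here after its values were seen and stood at 0.223 against 2.82 CPM. All 11 laminin chains lay on the higher side.

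The largest integrin ratios were those of Itgb1 and Itgav, each at 3.79, followed by Itga1 at 3.00, Itga6 at 1.74, Itga7 at 1.69 and Itga8 at 1.51. Itgam, at 0 counts in the 13 neurons, was at least 739-fold higher in astrocytes against a floor of 3 counts over the neurons. Without the cells that held 3 or more microglia markers its log2 ratio was 0.09. Among the laminin chains the ratio was 3.07 for Lamc1, 2.71 for Lamb1, 2.46 for Lama2 and 1.19 for Lama5. Lama5 missed 2-fold when 1 dominant cell was left out (0.93) or with DESeq2 size factors (0.90). Itgb3bp stood at 3.96. Without the 4 neurons that had more astrocyte than neuron markers, Itgb1 in the neurons was 70.2 CPM instead of 118 and Lamb2 was 0.0758 CPM instead of 62.2.

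Culture age went with these genes among the 13 cultured cortical neurons, a split chosen after the values were seen. In the 6 cells of 6 and 10 days, Itgb1 ran from 0 through 0.0146 to 5.93 CPM, with detection in 1. In the 7 cells of 13 and 15 days it ran from 17.9 through 76.6 to 662 CPM, with detection in all 7. The share of all genes whose ranges separate these sets of cells in the same way was not computed. Itgav was detected in 0 of 6 and 4 of 7, Itgb5 in 0 of 6 and 5 of 7, Lamb2 in 0 of 6 and 3 of 7, and Lama5 in 1 of 6 and 2 of 7. The younger cells had 0 to 3 members detected and the older 3 to 13.

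Other properties moved with age in the same cells. Genes detected ran from 1184 to 4687 (median 1407) in the younger and from 3857 to 6864 (median 4906) in the older cells. Summed astrocyte markers ran from 34 to 5010.2 CPM (median 1034) in the younger and from 779 to 16706 CPM (median 7792) in the older cells. The 4 cells with more astrocyte than neuron markers were all among the 7 older ones. Each age set held cells of both basecalling versions. Which of these goes with Itgb1 was not tested, and cultures of different ages cannot be told apart from different preparations.

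**Figure D5:**
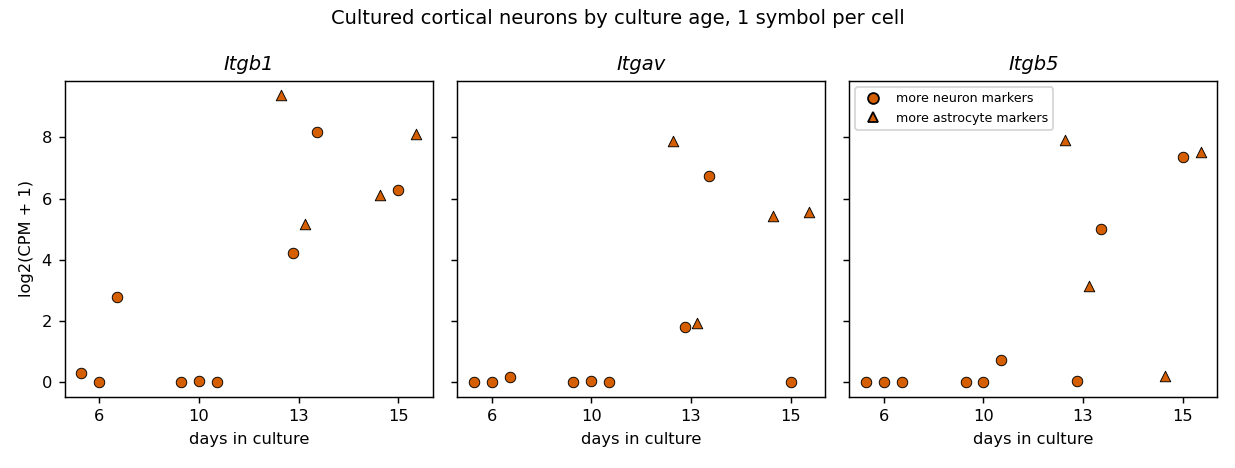
Itgb1, Itgav and Itgb5 in the 13 cultured cortical neurons (vertical axis, log2 of CPM + 1) by days in culture (horizontal axis), 1 point per cell, with cells that had more astrocyte than neuron markers drawn apart. Itgb1 was at most 5.93 CPM at 6 and 10 days and at least 17.9 CPM at 13 and 15 days.

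Cortical slice neurons were set against the same cultured cortical neurons, which serve as the second group here, in the astrocyte comparison and in the hippocampal one. Of 30 measured members, 10 were at least 2-fold higher in slice neurons (24.7% of 13741 genes) and 14 at least 2-fold lower (37% of genes). The members' median was -0.64, beside -0.24 for all genes. Alpha subunits had 6 higher and 4 lower of 13, beta subunits 1 and 4 of 6, and laminin chains 2 and 4 of 8. Itgb1 was lower in slice neurons by a log2 ratio of -1.60, Itgb5 by -3.80, Lama5 by -5.64 and Lamb2 by -4.93. The Lamb2 ratio was -0.03 and that of Itgb1 -0.76 without the cells that had more markers of the other class. Itga4 and Itgam, at 0 counts in the cultured cells, were at least 1714-fold and 5432-fold higher in slice neurons against the floor. Without the slice cells with 3 or more microglia markers, Itga4 stood at 14 CPM instead of 24.6 and Itgam at 1.60 CPM instead of 77.8 in slice neurons. That Itga4 level came from 10 cells with detection in 1, which held 99.6% of the counts. Of 17 measured microglia markers, 16 were 2-fold higher in slice neurons (median 3.91), and their part was not tested. Itgav was higher by 1.20, but the ratio turned to -0.72 without the single cell that led in its counts and to -0.11 without the cells with 3 or more microglia markers.

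Cultured hippocampal neurons were compared with cultured cortical neurons. The hippocampal cells were C57/BL6 and the cortical cells C57/BL6/N, so region and strain cannot be told apart. Of 28 measured members, 8 were at least 2-fold higher in the hippocampal cells (30.3% of 13485 genes) and 9 at least 2-fold lower (25.3%). Under TMM and under DESeq2 scaling, 8 were higher and 13 lower. All-gene counts were then 3443 higher and 3996 lower of 13485 under TMM, and 3429 and 4002 under DESeq2. Without the 2 hippocampal libraries with the title letter D, 5 were higher and 10 lower, beside 3913 and 3407 of 13117 genes. The members' median was -0.55, beside 0.15 for all genes. Lamb1 was higher at a log2 ratio of 3.13, with 7 of 8 against 2 of 13 cells detected. Lower were Lamb2 (-5.97), Itgb5 (-5.73), Lama5 (-5.08) and Itga1 (-4.01), each detected in none of the 8 hippocampal cells. The calls of Lamb2 and Itga1 ended without the 4 cortical cells that had more astrocyte than neuron markers: Lamb2 then had a ratio of -0.09, and Itga1 was at 0 counts in the other 9 cortical cells. Itgb5 (-4.99) and Lama5 (-5.21) stayed lower. All 19 measured astrocyte markers were at least 2-fold lower in the hippocampal cells (median -4.12), and their part in these ratios was not tested. Against the 3 cortical cells of the same 15 days, with Lamb1 at 117, 0.0403 and 0 CPM, the hippocampal range of 0.322 to 234 CPM overlapped.

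CA1 neurons were compared with cortical neurons from slices. Of 26 measured members, 6 were at least 2-fold higher in CA1 (22.6% of 12666 genes) and 11 at least 2-fold lower (39.8%). Under TMM and under DESeq2 scaling, 7 were higher and 7 lower. All-gene counts were then 3393 higher and 4501 lower of 12666 under TMM, and 3510 and 4399 under DESeq2. The members' median was -0.46, beside -0.37 for all genes. Laminin chains had 4 higher and 2 lower of 8. Itgav was lower at -6.26 (0 of 14 against 7 of 22 cells), Itga4 at -4.55, Lama2 at -3.44 and Itgb1bp1 at -1.09. Higher were Lama3, an epithelial laminin chain, at 3.47, Itga10 at 3.34 and Lamb1 at 2.56. Lama3 and Itga10 were each detected in 1 CA1 cell. The call of Lama2 ended without the cells with 3 or more microglia markers, which left it at 0.139 CPM in cortical and 0.0430 CPM in CA1 neurons. Without its leading cell Itga10 had a ratio of -1.69, and with cells of the later basecalling version alone Itgb1bp1 had 0.28. The CA1 cells with Lamb1 detected were both among the 6 without 3 or more microglia markers. The Lamb1 ratio also includes the CA1 cell left out by thinning, which read 2398 CPM.

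Within the astrocytes, 8 cells of 15 days were compared with 70 of 12 days. Of 35 measured members, 5 were at least 2-fold higher at 15 days (12.6% of 16569 genes) and 10 at least 2-fold lower (19.5%), with a median of -0.20 beside -0.08 for all genes. Itgb5 stood at 181 CPM against 59.9 (log2 ratio 1.58), with detection in 7 of 8 and 55 of 70 cells and cells from 0.804 through 128 to 456 CPM against 0 through 29.8 to 512. The ranges overlapped. Itgb5 stood at 8.73 CPM in the 3 cells of 7 days and at 289 CPM in the 5 of 14 days, where 1 cell held 78%. Lama2 stood at 47.5 against 17.4 CPM (1.40), with detection in 5 of 8 and 17 of 70 cells. At 7 days it was higher still, with 24.3, 105 and 154 CPM in the 3 cells, which were of the other strain, and at 14 days it stood at 3.82 CPM. Itgb1bp1 stood at 11.6 against 28.5 CPM (-1.23), and its ratio was -0.82 without the cells with 3 or more microglia markers and -0.91 without its leading cell.

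Itgam at 15 against 12 days stood at 41.6 against 9.18 CPM (2.07), and 12 of 16 measured microglia markers were 2-fold higher too. Without the cells with 3 or more of them, its ratio was 0.03. Itgb1, in contrast, lay at 1755 CPM at 12 days and 1532 at 15 days.

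Partners of these genes were read from fixed lists. Of all measured genes, 29.8% were 2-fold higher in astrocytes than in cultured cortical neurons and 19.9% lower. Focal adhesion genes, whose products tie integrins to actin, were 2-fold higher in astrocytes than in cultured cortical neurons in 12 of 27 and lower in 5 (median 0.74). Among them, Tln1, for the integrin activator talin, stood at 49.1 against 7.67 CPM, Actn1, for an actin crosslinker, at 556 against 49.3, and Kank2 at 74.7 against 5.20. Ligands of integrins other than laminin were higher in 9 of 14 and lower in 1 (median 2.16). Fibronectin (Fn1) stood at 2059 against 54.2 CPM, and the matrix proteins Ctgf at 1953 against 65.1, Cyr61 at 609 against 68.1 and Tnc, tenascin C, at 79.8 against 1.84. Basement membrane partners of laminin were higher in 5 of 11 and lower in 1 (median 1.00). Nid2, for the laminin-binding nidogen 2, stood at 114 against 1.02 CPM and agrin (Agrn) at 409 against 121, whereas Sparc was at 1869 and 1559 CPM and Col4a1 at 84.7 and 61.

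Genes of other laminin receptors and of proteins linked to them, called other laminin receptors below, were higher in 8 of 10 and lower in 1 (median 1.42). Utrophin (Utrn) stood at 251 against 14.5 CPM and the syndecan Sdc2 at 601 against 117. Genes of TGF-beta, which alphav integrins release from its latent form, were higher in 5 of 9 and lower in none (median 1.69). Its receptor Tgfbr2 stood at 97.2 against 0.774 CPM. The median of all genes in this comparison was 0.08.

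The medians of the same lists were below 0 in slice and in hippocampal neurons set against cultured cortical neurons. The median of all genes was -0.24 in slices, where 24.7% of genes were 2-fold higher and 37% lower, and 0.15 in hippocampal cells, with 30.3% and 25.3%. In slice neurons, focal adhesion genes were 2-fold higher in 7 and lower in 11 of 26 (median -0.49), basement membrane partners 2 and 5 of 10 (-0.61), other laminin receptors 1 and 7 of 10 (-1.43), ligands 2 and 8 of 14 (-1.27) and TGF-beta genes 1 and 3 of 7 (-0.86). Parva and Ilk, for the kinase complex at integrin tails, were at -4.04 and -3.06. In hippocampal cultures the counts were 5 and 12 of 27 (-0.89), 1 and 4 of 10 (-0.86), 1 and 6 of 10 (-1.01), 2 and 9 of 13 (-3.41) and 2 and 3 of 7 (-0.14) in the same order. Detection did not always go the same way. For focal adhesion genes, the median share of cells with a gene detected was 62.5% in hippocampal and 30.8% in cortical cultures. It was 81.25% and 34.6% for other laminin receptors, and 37.5% and 15.4% for TGF-beta genes. Basement membrane partners had 12.5% and 19.2%, ligands 0% and 23.1%, and all genes 62.5% and 23.1%. The 4 cortical cells with more astrocyte than neuron markers stayed in these values. In the hippocampal cells, Sparc was at 0.148 against 1559 CPM, whereas the kinase Src was detected in 8 of 8 against 1 of 13 cells (1.90) and Tgfbr2 in 7 of 8 against 0 of 13 (5.79).

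Between CA1 and cortical slice neurons the lists gave 5 and 7 of 24 (-0.29), 4 and 1 of 9 (0.01), 2 and 3 of 8 (-0.30), 2 and 5 of 11 (-0.34) and 1 and 4 of 7 (-1.10), beside a median of -0.37 for all genes. Of all genes, 22.6% were 2-fold higher in CA1 and 39.8% lower. The basement membrane collagen Col4a1 was detected in 5 of 14 CA1 and 2 of 22 cortical cells (3.97). Astrocytes of 15 and 12 days lay close, with 2 and 2 of 27 (0.07), 2 and 2 of 11 (0.05), 0 and 0 of 10 (0.06), 2 and 1 of 14 (0.11) and 1 and 0 of 8 (0.12), beside -0.08 for all genes. Between 15 and 12 days, 12.6% of all genes were 2-fold higher and 19.5% lower. Another scaling moved the median of all genes by over 0.1 in 3 comparisons. It went from -0.37 to -0.16 (TMM) or -0.13 (DESeq2) for CA1, from -0.24 to -0.08 or -0.06 for slice against culture, and from 0.15 to -0.06 under both for the hippocampal cells.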

How the data were processed

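Gene expression was measured in 158 libraries of single patch-pipette cells, made with a stranded TruSeq kit from polyA RNA per the labels' protocols. The authors deposited raw counts of reads per gene, unnormalized, for 21956 gene rows. The authors used bcl2fastq 1.8.4 or bcl2fastq2 2.17, STAR and HTSeq on mm10 (GRCm38), per the submitters' processing notes and the labels. The sources used here give neither the STAR and HTSeq versions nor how strand was handled nor which annotation was counted.

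Groups came from the labels. Among the libraries, 9 pairs were read as 2 libraries of 1 cell each, 8 from their titles and 1 from titles and counts together, and were summed, which gave 149 cells. Paired libraries correlated at 0.945 to 0.999 across genes on the log2 CPM scale and at most at 0.621 with any other. The highest value between unpaired libraries was 0.900. The cultured hippocampal libraries that share a title stem correlated at 0.706 and 0.719, within the range of the others there (0.626 to 0.900), and were kept as separate cells.

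Counts were summed per group into CPM with exact Poisson 95% intervals. Each cell was thinned to 1000000 counts (seed 7), and 5 counts were taken as detection, with exact Clopper-Pearson intervals for shares of cells. Comparisons used log2 ratios with 1 CPM added, and at least 2-fold was counted. Groups were not tested against each other, since cells are not replicates. Dixon's outlier rule was applied to single cells within small groups. Reads carry no molecular identifiers, so intervals cover counting error only. Gene positions, overlaps and exon lengths came from GENCODE M21, matched by symbol.

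Members were described with all values where they reached 10 CPM in a group and 25% of its cells. In a comparison they were named at 10 CPM or more in a group with a ratio past 2-fold in summed and in mean CPM and a like difference in detection. The values of 1 member that met the rule are not reported here. Up to 4 genes per list were named, those with the largest difference in detection. The members, lists and rules were chosen with earlier results of these data known. Alternatives covered weighting, scaling (edgeR 4.0.16, DESeq2 1.42.0 in R 4.3.3), pseudocount, filter, library pairs, basecalling version, detection rule, depth, marker-bearing cells, dominant cells and, chosen after the data were seen, culture age. Scripts ran in Python 3.11.15 with numpy 2.4.6, pandas 2.3.3, scipy 1.17.1 and matplotlib 3.10.9, and were tested on simulated data.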

Additional observations from a re-analysis of the deposited data

Results flagged for a closer look

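In the 8 cultured hippocampal neurons, 1 cell lay far below the other 7 for both Itgb1 and Lamb1. On the log2 scale of CPM + 1 it read 0.22 for Itgb1 and 0.40 for Lamb1, that is 0.161 and 0.322 CPM, while the other cells began at 27.3 CPM for Itgb1 and 33.5 CPM for Lamb1. The gap to the nearest cell exceeded the 95% critical value of Dixon's test in both genes. Chance flags about 1 in 20 such groups, and 6 were checked, all in small groups of cells from sparse counts. The low library has the title letter D and shares its title stem with another of the 8, and the labels do not say whether such a pair is 1 cell.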

How the results depend on the processing

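No paired analysis was possible because no group shares an animal or culture label with another, and the comparisons come from no test. Of the counts of members and shares of cells recomputed under the alternatives, 141 stayed within 1.5 times the reported value and 38 moved. Of the ratios of named genes, 443 kept direction and size class, 18 dropped below 2-fold and 4 turned. Those that turned were Itgav in slice against culture (-0.11 without cells with 3 or more microglia markers, -0.72 without its leading cell), Itga10 in CA1 (-1.69 without its leading cell) and Itgb1bp1 in CA1 (0.28 with the later basecalling version alone).

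Counts of members moved under several settings. With 0.1 CPM, members lower in astrocytes than neurons numbered 4, lower in hippocampal cells 15, lower in CA1 17 and higher at 15 days 8. Counts over all genes moved with the settings too. With 0.1 CPM they were, in the same order, 3919 of 17473, 3824 of 13485, 5911 of 12666 and 2547 of 16569. With 5 CPM, the numbers were 0 lower in astrocytes, 5 higher and 7 lower in slices, 2 higher and 5 lower in hippocampal cells, 3 lower in CA1, and 3 higher and 5 lower at 15 days. All-gene counts with 5 CPM were 2843 of 17473 in astrocytes and 2731 and 4106 of 13741 in slices. They were 2954 and 2721 of 13485 in hippocampal cells, 3966 of 12666 in CA1, and 1476 and 1878 of 16569 at 15 days. Without the leading cell of each member, members numbered 2 lower in astrocytes, 6 higher and 7 lower in slices, 5 higher and 3 lower in hippocampal cells, 6 lower in CA1 and 6 lower at 15 days. Leading cells were left out for the members alone, so no share of all genes stands beside these counts. Without cells with more markers of the other class, 6 were lower in slices, 3 lower in hippocampal cells, and 0 were detected in 50% of cultured cortical neurons. All-gene counts of lower genes were then 3982 of 12352 in slices and 2568 of 12490 in hippocampal cells. Without cells with 3 or more microglia markers, 6 were higher in slices, 4 lower in CA1 and 3 higher at 15 days, beside 2812 of 11673, 3773 of 9260 and 2026 of 15980 genes. Both TMM and DESeq2 gave 7 lower in CA1, the later basecalling version alone gave 0 lower in astrocytes, and leaving out hippocampal titles with the letter D gave 5 higher. All-gene counts for these were 4501 and 4399 of 12666, 3453 of 17342 and 3913 of 13117. In CA3, members in 50% of cells numbered 0 with 10 counts, with 500000 counts of depth or with second libraries left out, 2 with the later basecalling version alone and 1 to 2 when leaving out each cell. The 5 CA3 cells have no second library, so leaving these out changed only the random draw of the thinning there. The CA3 member is Lamb1, and 1 of the cells that carried it stood at 5.43 CPM, near the cut of 5 counts. Lama5, Lamb2 and Lamc1 together held 51.2% of astrocytes at 10 counts, and the median number of alpha subunits was 5 at 1 count. With cultured cortical neurons of 13 and 15 days alone, no count moved beyond 1.5 times, and Itga8 (0.97) and Itgav in slices (0.53) dropped below 2-fold. The cause was not tested. With 14 CA1 cells, detection in 0 allows a share of cells up to 23.2%.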
